A study of Mus musculus with 12 samples.

Results

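The genes described here were 49 components of BMP, activin, nodal and TGF-beta signalling in the mouse, namely secreted ligands, receptors, antagonists, Smad proteins and the Id genes. They were chosen by name as parts of the pathway. A row was found for 48 of them among the 45706 genes of the count table, and 46 passed the filter on low counts that left 17003 genes for testing. Gdf1, a nodal partner, was not analysed here, and Gdf5 and Smad9 had too few counts to be tested. RNA was sequenced from 12 libraries of cells derived from Sox1GFP embryonic stem cells of the C57BL/6 strain, in which GFP reports the transcription factor Sox1, a marker of early neural stem cells. The 4 groups held 3 libraries each. Baseline were glial progenitors in which Sox1 had not been induced, and were labelled as not sorted, although the study's text describes sorted cells. Sox1posGP were glial progenitors sorted for GFP after the activator dCas9-VP64 had been guided to the Sox1 promoter. In the study only a minority of targeted cells became GFP-positive. Guide delivery, the sorting named in the labels and Sox1 induction differed together between Sox1posGP and Baseline. Their parts cannot be told apart, and phrases below such as after Sox1 induction name this comparison and not a cause. The study's progenitor lines carried dCas9-VP64 as clones, and which clone gave which library was not stated. NSC were unsorted neuroepithelial cells after a short neural induction, and NR were neuroepithelial cells sorted for GFP and called neural rosettes. Progenitors were expanded with basic FGF and EGF on laminin, and no BMP, activin or TGF-beta protein was named among the additions.

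BMP and growth differentiation factor ligands bind pairs of type I and type II serine/threonine kinase receptors, which phosphorylate Smad1, Smad5 and Smad9. Nodal, activins and TGF-beta act through Smad2 and Smad3, and both branches share Smad4. Secreted antagonists such as noggin, chordin, gremlin and follistatin hold ligands away from their receptors, while Smad6 and Smad7 are made in response to the signal and dampen it. The Id genes are classical early targets of BMP signalling and encode proteins that block bHLH transcription factors, which in neural progenitors favours maintenance or glial fate over neuronal differentiation. Low BMP and nodal signalling is a condition for neural induction of pluripotent cells.

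Depth differed between groups: total counts ranged from 4939268 to 18351483 in Baseline, from 3407066 to 6315574 in Sox1posGP, from 29046205 to 43095688 in NSC and from 16707006 to 34594885 in NR. Levels are given as CPM, counts scaled to library size after TMM normalization, in the order of libraries 1, 2 and 3, and in these bulk samples fewer cells of a type and less RNA per cell cannot be told apart. A limit of 3 counts over a group corresponded to 0.104 CPM in Baseline, 0.19 in Sox1posGP, 0.0282 in NSC and 0.0362 in NR, for counting error only, so that a ligand of low level could be missed in the progenitors. Sox1 itself was at 4.83, 5.999 and 5.43 CPM in Baseline, 20.3, 20.9 and 21.7 in Sox1posGP, 48.6, 64.9 and 51.8 in NSC and 4.62, 20 and 19.2 in NR. Of the GFP-sorted NR libraries, NR 1 was therefore at the Baseline level of Sox1 and all 3 were below NSC, which goes against their label, so NR is used here only as the name of the libraries so labelled. The 7 pluripotency markers summed to 34.7 to 45.5 CPM in Baseline, 13.6 to 15.3 in Sox1posGP, 54.8 to 157 in NSC and 1427 to 2741 in NR, and the 7 mesenchyme markers to 37.4 to 43.9, 44.9 to 55.9, 1815 to 3409 and 2101 to 7537 CPM, with none of either list at 0 in any group. Most of the Baseline pluripotency sum was Klf4 (mean 33.5 CPM, and 5.79 in Sox1posGP), the 1 marker of that list that passed between the progenitor groups. The 5 astrocyte markers summed to 658 to 659 CPM in Baseline, 363 to 379.7 in Sox1posGP, 9.05 to 9.93 in NSC and 11.3 to 15.7 in NR. Most of the sum in the progenitors was Aldoc (mean 639.8 CPM in Baseline and 347 in Sox1posGP). Aldoc alone of that list was called lower in Sox1posGP than in Baseline, and 2 markers were called higher. All markers but Aldoc were low there. In Baseline and Sox1posGP, S100b had means of 15.4 and 18.4 CPM, Gfap 2.25 and 3.09, Aldh1l1 0.66 and 1.96, and Aqp4 0.0199 and 0.321. NR had the lowest sum of the 8 neural progenitor markers (808 to 1359 CPM, and 2262 to 2503 in NSC) and its 7 rosette markers (314 to 545 CPM) were below NSC (901 to 998). NSC 2 and NR 2 stood apart from the other libraries of their groups, with lower pluripotency and mesenchyme sums and less of the collagen genes Col1a1, Col1a2 and Col3a1, but with the most Acta2 (143, 880.1 and 141 CPM in NSC and 275, 696 and 206 in NR) and the most Twist1 of their groups. The part that these differences in makeup had in the results was not tested.

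Induction of Sox1 in glial progenitors (Sox1posGP against Baseline) went with higher RNA of all 4 Id genes, of Bmp2 and of the inhibitor Smad6. The signal transducer genes Smad1, Smad2, Smad3 and Smad5, the receptor genes Tgfbr2 and Tgfbr3 and the ligand genes Gdf6 and Gdf11 were higher too. Smad4, the activin subunit gene Inhbb, Gdf9 and the receptor genes Acvr1b, Acvr2a and Bmpr1a fell. The calls of Smad5, Tgfbr3, Acvr1b, Gdf6, Gdf9 and Gdf11 were lost without some single libraries. A gene counts as changed when edgeR's quasi-likelihood test gave an adjusted p (Benjamini-Hochberg, over all genes tested) under 0.1 and an unadjusted p under 0.05. Of the 46 members tested, 14 rose and 6 fell, against 21.6% and 22.7% of all genes tested. Over 4-fold, 3 members rose (Id3, Bmp2 and Gdf6) and none fell, against 3.87% and 1.92% of all genes. The median log2 fold change was 0.27 over the members and 0 over all genes. That median became 0.28 when 4 members with 3 or fewer counts in one group were set to their counted ratio and 5 with 3 or fewer in both groups were left out. The filter on low counts used all 4 groups, so some members and other genes entered this comparison only through NSC and NR. With the filter and fit on Baseline and Sox1posGP alone, 31 members were tested. Of these, 15 rose and 8 fell, beside 4076 and 3867 of 12045 genes, and the medians were 0.29 and 0.02.

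Far more members passed when NSC and NR were set against Baseline. In NSC 31 members rose and 6 fell (42.7% and 32.5% of all genes), of which 22 rose and 2 fell over 4-fold (19.1% and 5.89% of all genes). In NR 30 rose and 9 fell (44.2% and 32.8% of all genes), of which 22 rose and 4 fell over 4-fold (22.0% and 6.02% of all genes). Ligands and antagonists accounted for most of the rises over 4-fold, 11 ligands and 3 antagonists in NSC and 12 and 4 in NR. The median log2 fold change of the members was 1.74 in NSC and 1.59 in NR, beside 0.20 and 0.19 over all genes. With members of 0 to 3 counts in Baseline set to their bound or ratio, the medians were 1.74 and 1.59. Such members passed the filter on low counts only through other groups, as did genes of that kind among all genes tested.

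Between NR and NSC, the nodal-related genes Nodal, Lefty1, Lefty2 and Gdf3 were the members that differed most, and most receptors, Smads and Id genes were lower in NR. In all, 15 members rose and 20 fell (29.5% and 25.8% of all genes), of which 4 rose and none fell over 4-fold (7.34% and 0.118% of all genes). The median was -0.11 over the members and 0.01 over all genes. Against NSC, 9 members were higher and 27 lower in Sox1posGP (30.0% and 39.9% of all genes), and against NR 12 were higher and 25 lower (30.8% and 42.9% of all genes). These comparisons share groups, and their counts are not independent of each other.

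**Figure D1:**
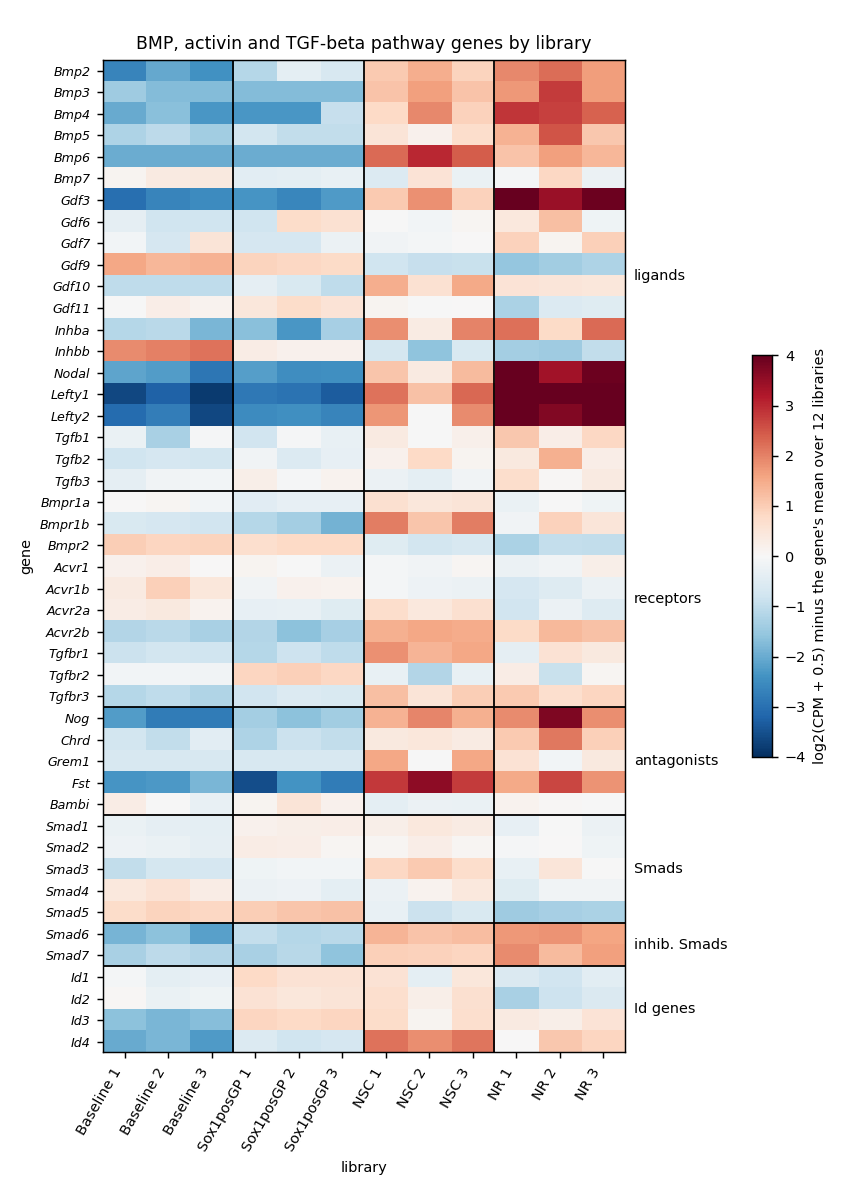
Level of the 46 tested members (rows, ordered by role) in the 12 libraries (columns, by group), as log2(CPM + 0.5) minus the mean of the gene over all libraries, on a colour scale cut at -4 and 4. The lower rows show Id1 to Id4 above Baseline in all 3 Sox1posGP libraries, and the ligand rows show Nodal, Lefty1, Lefty2 and Gdf3 highest in NR.

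Among the BMP ligands, Bmp2, which signals through Smad1 and Smad5, was the one that rose with Sox1. It was at 0.298, 0.698 and 0.417 CPM in Baseline, 1.74, 3.297 and 2.67 in Sox1posGP, 9.73, 13.2 and 8.75 in NSC and 18.4, 22.97 and 15.3 in NR. No libraries of different groups overlapped, and the rise in Sox1posGP was 6.17-fold (log2 fold change 2.63 ± 0.43, adjusted p = 3.0e-04). NSC exceeded Baseline 24.3-fold and NR exceeded NSC 1.79-fold (log2 fold change 0.84 ± 0.22, adjusted p = 0.0053). Bmp4, a ligand known to block neural fate in embryonic stem cells, had 4 counts over Baseline and 5 over Sox1posGP, 0.119, 0.279 and 0 and 0, 0 and 0.834 CPM. That pair did not pass the test (adjusted p = 0.55). Bmp4 stood at 3.85, 9.01 and 4.24 CPM in NSC and 17.5, 16.2 and 12.4 in NR, every library above every progenitor library, and rose by a further 2.702-fold from NSC to NR (log2 fold change 1.43 ± 0.37, adjusted p = 0.0056).

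Bmp6 had no counts in any progenitor library but 8.93, 15.3 and 10.1 CPM in NSC and 3.82, 5.65 and 4.44 in NR. It was at least 105-fold higher in NSC and at least 45.7-fold higher in NR than in Baseline, taking 3 counts over the Baseline group as the limit. Txndc5 overlaps Bmp6 on the other strand, with up to 13387 counts in a library, and whether strand was used in counting was not given. Unlike Bmp2 and Bmp4, Bmp6 was lower in NR than in NSC (log2 fold change -1.29 ± 0.26, adjusted p = 0.0027). Bmp3, a ligand known to oppose other BMPs, had 2 counts in Baseline and none in Sox1posGP. It reached 3.18, 4.66 and 3.14 CPM in NSC, 51.2-fold (95% counting interval 14.1 to 425) above Baseline by counts, and 5.05, 11.2 and 4.805 in NR. Bmp5 went from 0.0597, 0.1395 and 0 CPM in Baseline and 0.2895, 0.157 and 0.167 in Sox1posGP to 1.36, 0.967 and 1.65 in NSC and 2.96, 7.03 and 2.25 in NR, a step of 3.07-fold between the last groups (log2 fold change 1.62 ± 0.39, adjusted p = 0.0033). Gdf10, a relative of Bmp3, was unseen in Baseline, at 2.28, 1.04 and 2.38 CPM in NSC, at least 18.9-fold higher, and at 0.985, 0.903 and 0.899 CPM in NR. The step between NSC and NR was called for Bmp3 upwards and for Gdf10 downwards, but neither call held without NSC 1 (adjusted p = 0.13 and 0.11) or NSC 3 (0.14 and 0.12), nor that of Bmp3 without NR 2 (0.24).

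Bmp7 was the exception among the BMPs, since it was well expressed in every group: 45.2, 53.6 and 54.3 CPM in Baseline, 30.98, 31.9 and 33.9 in Sox1posGP, 28.3, 60.9 and 34.7 in NSC and 39.1, 75 and 35.2 in NR. All Sox1posGP libraries were below all Baseline libraries, but the difference missed the threshold when the 4 groups shared one estimate of the spread (log2 fold change -0.65 ± 0.31, adjusted p = 0.11). With only the Baseline and Sox1posGP libraries in the fit it passed (adjusted p = 4.8e-05), and NSC 2 and NR 2 were the highest libraries of their groups. Gdf6 rested on 11 counts in Sox1posGP and 3 in Baseline, a ratio of 6.66-fold (95% counting interval 1.76 to 37.2). Its values overlapped between those groups, and its call was lost without Baseline 2 or 3 or Sox1posGP 2 or 3 (adjusted p = 0.20, 0.17, 0.28 and 0.22). Gdf7, known as a roof plate signal of the dorsal neural tube, was at 0.239, 0 and 0.626 CPM in Baseline, 0.224, 0.242 and 0.305 in NSC and 0.985, 0.355 and 1.04 in NR. It was called higher in NR than in NSC (log2 fold change 1.59 ± 0.52, adjusted p = 0.020), but not without NR 3 (adjusted p = 0.12). Gdf5, a joint-forming ligand, had no counts in the progenitors, 16 in NSC and 10 in NR.

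The nodal group set NR apart. Nodal, which patterns the early embryo through Smad2 and Smad3, was at 0.358, 0.279 and 0 CPM in Baseline, 0.2895, 0.157 and 0.167 in Sox1posGP, 7.43, 4.18 and 8.32 in NSC and 73.2, 37.4 and 55.7 in NR. Every NR library lay above every NSC library, and the step was 8.29-fold (log2 fold change 3.05 ± 0.28, adjusted p = 3.0e-06). Lefty1, a secreted inhibitor of Nodal and itself a Nodal target, measured 44.8, 22.2 and 48.6 CPM in NSC and 389.8, 176 and 285 in NR, 7.34-fold higher (log2 fold change 2.88 ± 0.29, adjusted p = 6.1e-06). Lefty2, its neighbour and close relative, measured 20.7, 5.56 and 22.4 and 208, 79.7 and 154 CPM, 9.02-fold higher (log2 fold change 3.17 ± 0.42, adjusted p = 5.1e-05). In the progenitors both Lefty genes stayed under 1 CPM, with 10 and 7 counts over Baseline. Of the 50-base words in the Lefty1 transcripts, 17.9% also occur in Lefty2 (12% of those in Lefty2), so the split of reads between the pair is uncertain. Gdf3, a ligand of pluripotent cells that works through the Nodal receptors, measured 7.83, 13.9 and 7.04 CPM in NSC and 74.5, 43.6 and 60.1 in NR, 6.205-fold higher (log2 fold change 2.63 ± 0.26, adjusted p = 6.7e-06).

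Against Baseline, NR was 197-fold higher in Nodal, 797-fold in Lefty1 and 588-fold in Lefty2, ratios that rest on 8, 10 and 7 Baseline counts, and Gdf3, with 2 Baseline counts, was 815-fold (95% counting interval 226 to 6734) higher. Within both NSC and NR, library 2 had the least Nodal, Lefty1 and Lefty2, while Gdf3 was highest in NSC 2 and lowest in NR 2. The 7 pluripotency markers followed the same order of libraries in NR, 2741, 1427 and 2069 CPM, as did Nodal, and stood at 157, 54.8 and 139.8 CPM in NSC. What part cells with those markers had in the difference was not tested. Without NSC 2 and NR 2, a choice made after seeing the data, the NR-to-NSC differences were 3.03 for Nodal, 2.86 for Lefty1, 3.07 for Lefty2 and 3.17 for Gdf3 on the log2 scale.

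**Figure D2:**
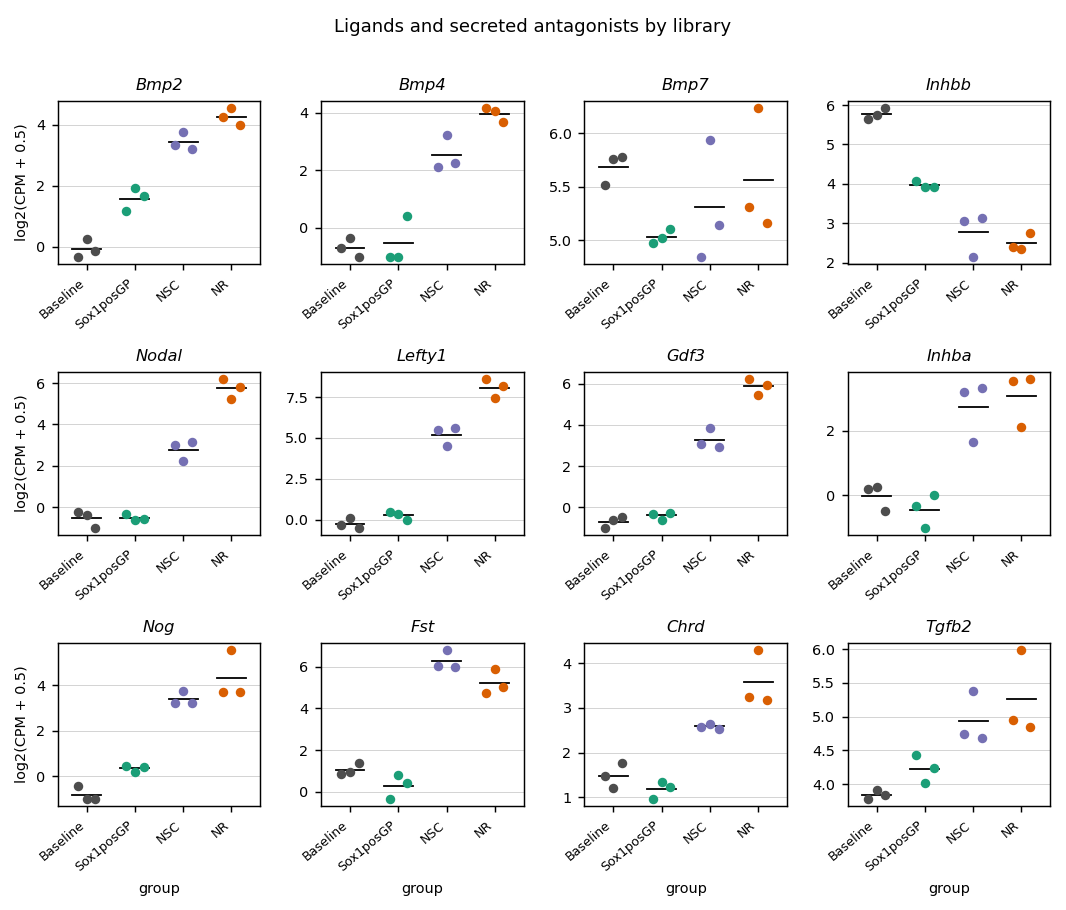
Level of 12 ligands and antagonists as log2(CPM + 0.5) by group, with each point 1 library and the line the mean of 3, and with a y axis that differs between panels. Bmp2 steps up from Baseline through Sox1posGP and NSC to NR. Inhbb steps down from Baseline to Sox1posGP and again to NSC and NR, which overlap. Nodal, Lefty1 and Gdf3 are highest in NR.

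Activin subunits moved in opposite directions. Inhbb, which encodes the beta B subunit, was at 49.5, 53.7 and 60.3 CPM in Baseline, 16.2, 14.6 and 14.7 in Sox1posGP, 7.81, 3.94 and 8.29 in NSC and 4.74, 4.55 and 6.29 in NR. It was 3.598-fold lower after Sox1 induction (log2 fold change -1.85 ± 0.24, adjusted p = 3.7e-05), with no overlap of libraries, and 8.09-fold lower in NSC than in Baseline. Inhba, the beta A subunit, was at 0.656, 0.698 and 0.209 CPM in Baseline and 0.2895, 0 and 0.5004 in Sox1posGP, a pair that did not pass the test (adjusted p = 0.51). It was at 8.703, 2.66 and 9.42 CPM in NSC and 11.02, 3.81 and 11.5 in NR, 11.9-fold and 14.98-fold above Baseline. The lowest library of both NSC and NR was again number 2, and NR and NSC overlapped (adjusted p = 0.57). Gdf9, a ligand best known from the oocyte, was a Baseline gene here: 7.58, 6.42 and 6.68 CPM there, 4.63, 4.397 and 4.17 in Sox1posGP, 1.07, 0.932 and 0.975 in NSC and 0.431, 0.548 and 0.674 in NR. The fall in NSC was 6.91-fold (log2 fold change -2.79 ± 0.23, adjusted p = 9.3e-08), and the smaller one in Sox1posGP (log2 fold change -0.66 ± 0.23, adjusted p = 0.037) was lost without Baseline 1 (adjusted p = 0.15) or Sox1posGP 3 (0.11).

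Of the TGF-beta genes proper, Tgfb2, an isoform made in neural tissue, rose 2.23-fold in NSC and 2.94-fold in NR. Its levels were 13.2, 14.5 and 13.8 CPM in Baseline, 21.1, 15.7 and 18.3 in Sox1posGP, 26.4, 41.1 and 25.1 in NSC and 30.3, 62.9 and 28.1 in NR. Although all Sox1posGP libraries exceeded all Baseline libraries, the difference in Tgfb2 did not pass (adjusted p = 0.36), and NSC 2 and NR 2 were the highest of all. Tgfb3 rose in NR, to 29.9, 18.7 and 23.4 CPM from 14.1, 16.3 and 16.7 in Baseline (log2 fold change 0.62 ± 0.17, adjusted p = 0.0042), and also over NSC (log2 fold change 0.65 ± 0.16, adjusted p = 0.0040). Tgfb1 was low throughout, at 2.27, 0.837 and 2.71 CPM in Baseline and 6.47, 3.45 and 5.395 in NR, and rose 2.62-fold between them (log2 fold change 1.39 ± 0.36, adjusted p = 0.0029). With the library number as a block, NR also exceeded NSC in Tgfb1 (adjusted p = 0.049, and 0.11 without the block). Gdf11, which limits neurogenesis in some tissues, was 13.1, 16.04 and 14.8 CPM in Baseline and 18.5, 22.6 and 19.8 in Sox1posGP (log2 fold change 0.49 ± 0.20, adjusted p = 0.072). The Gdf11 call in Sox1posGP was lost without any Baseline library or without Sox1posGP 2 or 3 (adjusted p = 0.11 to 0.23), while Gdf11 was 1.84-fold lower in NR than in Baseline (log2 fold change -0.88 ± 0.19, adjusted p = 9.5e-04).

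Which ligand led differed by group when levels were set per kilobase of exon, the scale on which genes can be compared. In Baseline, Inhbb at 12.8 ± 1.28 CPM per kb (SD, n = 3) and Bmp7 at 12.7 ± 1.25 did not differ beyond their spread, and Tgfb3 followed at 4.64 ± 0.418. Sox1posGP had Bmp7 first at 8.02 ± 0.367, then Tgfb3 at 5.85 ± 0.553 and Gdf11 at 5.005 ± 0.513, the last pair within their spread. NSC had Lefty1 at 21.9 ± 8.11 and Bmp7 at 10.3 ± 4.296, ranges that met. NR had Lefty1 at 161 ± 60.8, Lefty2 at 56.4 ± 24.7, Nodal at 26.5 ± 8.53 and Gdf3 at 24.5 ± 6.37, with the last pair again within their spread and Bmp7 next at 12.4 ± 5.46.

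All 10 receptor genes were detected in every library. After Sox1 induction 2 rose and 3 fell, near the shares of all genes (21.6% and 22.7%). Tgfbr2, the type II receptor for TGF-beta, went from 48.04, 47.7 and 46.96 CPM in Baseline to 95.8, 101 and 92.9 in Sox1posGP, 2.03-fold (log2 fold change 1.02 ± 0.27, adjusted p = 0.0085). In NSC Tgfbr2 was at 42.5, 22.6 and 42.1 CPM and in NR at 64.5, 28.1 and 54.9, with library 2 lowest in both groups. Sox1posGP exceeded NSC 2.704-fold (log2 fold change 1.43 ± 0.27, adjusted p = 2.8e-04) and NR 1.98-fold. Tgfbr3, the co-receptor betaglycan, was at 5.91, 6.56 and 5.635 and 7.82, 9.26 and 8.84 CPM in the progenitors (log2 fold change 0.53 ± 0.21, adjusted p = 0.066), a call lost without any Baseline library or without Sox1posGP 2 or 3 (adjusted p = 0.11 to 0.19). Acvr2a, a type II receptor shared by activins and BMPs, fell from 78.4, 83.4 and 70.96 to 50.7, 51.3 and 45.9 CPM (log2 fold change -0.66 ± 0.13, adjusted p = 0.0011). Orc4 overlaps Acvr2a on the other strand, so reads of the pair cannot be told apart if strand was not used. Bmpr1a, a type I BMP receptor, fell from 124, 129 and 114 to 89.2, 98.3 and 97.7 CPM (log2 fold change -0.36 ± 0.09, adjusted p = 0.0059). Acvr1b, the type I receptor for activin and nodal, was at 6.803, 10.3 and 7.305 and 4.63, 5.81 and 5.67 CPM, a call lost without Baseline 2 or any Sox1posGP library (adjusted p = 0.11 to 0.28).

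NSC and NR had more RNA than Baseline of the receptor genes Acvr2b, Bmpr1b, Tgfbr1 and Tgfbr3 and less of Bmpr2 and Acvr1b. Acvr2a was called higher in NSC but lower in NR, and Bmpr1a was called higher in NSC only. Acvr2b, a type II receptor for activin and nodal, was at 25.7, 27.2 and 23.2 CPM in Baseline, 25.2, 18.2 and 23.02 in Sox1posGP, 158, 169 and 164 in NSC and 98.2, 142 and 131 in NR, 6.43-fold up in NSC (log2 fold change 2.68 ± 0.14, adjusted p = 1.2e-09). Tgfbr1, the type I TGF-beta receptor, was at 45.5, 49.7 and 48, 37.6, 46.8 and 41.03, 299, 216 and 246 and 64.2, 124 and 109.7 CPM in the same order of groups. It was 5.33-fold up in NSC, and 2.55-fold lower in NR than in NSC (log2 fold change -1.35 ± 0.19, adjusted p = 7.4e-05). Bmpr1b, a type I BMP receptor of the dorsal neural tube and cartilage, rose 6.16-fold in NSC, to 24.8, 12.7 and 25.2 CPM from 3.58, 3.35 and 3.13, and was 2.57-fold lower in NR than in NSC. Bmpr2, the type II BMP receptor, ran from 72.9, 66.5 and 67.6 CPM in Baseline through 58.2, 63.6 and 63.4 in Sox1posGP and 25.97, 21.8 and 23.3 in NSC to 14.9, 18.5 and 17.98 in NR, 4.02-fold down at the end (log2 fold change -2.01 ± 0.11, adjusted p = 1.5e-09). Between NR and NSC, 6 of the 10 receptor genes were lower in NR (Bmpr1a, Bmpr1b, Bmpr2, Acvr2a, Acvr2b and Tgfbr1) and none was higher. Of all genes, 25.8% were lower and 29.5% higher. Tgfbr2 was higher only under the library-number block (adjusted p = 0.079). Acvr1, whose product is another type I BMP receptor, passed in no comparison, and its libraries ranged from 13.7 to 19.8 CPM.

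The secreted antagonist genes Nog, Fst, Chrd and Grem1 were under 3 CPM in every progenitor library and rose in NSC and NR, though Grem1 stayed under 2 CPM there. Noggin, which binds BMP2 and BMP4, was represented by 4 counts, all from Baseline 1, in Baseline and by 12 in Sox1posGP. In CPM, Nog was at 0.239, 0 and 0 and 0.869, 0.628 and 0.834, so the libraries did not overlap but the difference did not pass (log2 fold change 2.43 ± 1.37, adjusted p = 0.19). In NSC Nog reached 8.79, 12.9 and 8.93 CPM and in NR 12.5, 46.3 and 12.3 CPM, 71.6-fold and 167-fold above Baseline. The further step from NSC to NR rested on NR 2 (adjusted p = 0.027 with it and 0.35 without). Follistatin, which sequesters activins, was at 1.31, 1.395 and 2.09 CPM in Baseline, 0.2895, 1.26 and 0.834 in Sox1posGP, 64.5, 111 and 63.2 in NSC and 26.2, 58.7 and 31.7 in NR. Fst was 53.2-fold up in NSC (log2 fold change 5.73 ± 0.41, adjusted p = 2.2e-08), and NR was 2.04-fold below NSC (log2 fold change -1.03 ± 0.27, adjusted p = 0.0069). Library 2 was the highest of its group for both genes. Chrd, which encodes the BMP trap chordin, was at 5.48, 5.77 and 5.27 CPM in NSC and 8.99, 19.2 and 8.49 in NR, 2.404-fold and 5.35-fold above the 2.27, 1.81 and 2.92 of Baseline, with Thpo overlapping it on the other strand. Grem1, gremlin, had no counts in progenitors, and its 147 counts in NSC put it at least 13.2-fold above Baseline. Bambi, a membrane pseudoreceptor that blocks type I receptors, was at 25.96, 20.8 and 17.3 CPM in Baseline, 22.9, 30.5 and 23.9 in Sox1posGP, 16.02, 17.8 and 17.4 in NSC and 23.5, 21.7 and 21.1 in NR, and Sox1posGP did not pass against Baseline (adjusted p = 0.24). Its call as lower in NSC than in Baseline was lost without Baseline 1 or 2 or NSC 1 or 3 (adjusted p = 0.32, 0.084, 0.14 and 0.092). At 0.084 and 0.092 the unadjusted p was not under 0.05. The Bambi call as higher in NR than in NSC was lost without NR 1 or NSC 1 or 3 (adjusted p = 0.13, 0.17 and 0.11).

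Among the transducers, Sox1posGP had more RNA of Smad1, Smad2, Smad3 and Smad5 than Baseline and less of Smad4. Smad1, which carries BMP signals, was at 98.6, 91.7 and 90.99 CPM in Baseline and 135, 140.2 and 142 in Sox1posGP, 1.48-fold up (log2 fold change 0.57 ± 0.09, adjusted p = 2.2e-04). Smad2 and Smad3, which carry activin and TGF-beta signals, rose 1.41-fold (log2 fold change 0.50 ± 0.09, adjusted p = 9.0e-04) and 1.597-fold (log2 fold change 0.67 ± 0.19, adjusted p = 0.012). The Smad5 rise, from 171, 191 and 185 to 203, 225 and 234 CPM (log2 fold change 0.28 ± 0.12, adjusted p = 0.083), was the smallest and was lost without any Baseline library or without Sox1posGP 2 or 3 (adjusted p = 0.15 to 0.24). Smad4, the common partner of both branches, fell from 227, 254 and 211 to 144, 147 and 129.6 CPM, 1.65-fold (log2 fold change -0.72 ± 0.15, adjusted p = 0.0017). In NSC Smad5 went the other way, down to 83.96, 57.04 and 68 CPM, and further to 37.99, 41.1 and 42.8 in NR, 4.48-fold below Baseline (log2 fold change -2.16 ± 0.12, adjusted p = 2.5e-09). Smad3 was highest in NSC, at 70.4, 83.2 and 64.98 CPM against 31.96, 55.9 and 39 in NR. All 5 of these Smad genes were lower in NR than in NSC, as were 25.8% of all genes. The calls of Smad2 (without NSC 2 or NR 3, adjusted p = 0.14 and 0.21) and Smad4 (without NSC 3 or NR 1, 0.20 and 0.16) depended on single libraries. Smad9, the third BMP Smad, had 9, 12, 9 and 14 counts over Baseline, Sox1posGP, NSC and NR, and was not tested. Per kilobase, Smad4 led the Smads in every group, from 37.8 ± 2.498 CPM per kb in Sox1posGP to 62.1 ± 5.98 in Baseline.

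The inhibitory Smads rose in steps. Smad6, which acts mainly on the BMP branch and is induced by it, was at 1.13, 1.395 and 0.835 CPM in Baseline, 2.61, 2.198 and 2.335 in Sox1posGP, 14.9, 12.5 and 13.4 in NSC and 19.3, 20.1 and 17.3 in NR. No library of one group reached the range of another. The first step was 2.04-fold (log2 fold change 1.03 ± 0.25, adjusted p = 0.011), NSC was 11.8-fold above Baseline (log2 fold change 3.56 ± 0.20, adjusted p = 1.9e-09) and NR 1.39-fold above NSC (log2 fold change 0.48 ± 0.14, adjusted p = 0.013). With libraries thinned to the smallest total, the first step missed the threshold (adjusted p = 0.10) and so did the last (0.37). Smad7, which dampens both branches, did not follow in the progenitors, at 3.22, 3.91 and 3.55 and 3.18, 3.77 and 2.502 CPM (adjusted p = 0.74). It rose 4.74-fold in NSC, to 17.2, 16.7 and 16.2 CPM, and 7.85-fold in NR, to 33.3, 21.5 and 28.2 (log2 fold change 2.97 ± 0.20, adjusted p = 1.0e-08).

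The Id genes, the usual RNA readout of BMP signalling, were all higher in Sox1posGP than in Baseline. Id3 was at 46.01, 40.2 and 43.8 CPM in Baseline, 258, 247 and 263 in Sox1posGP, 240.4, 155 and 229 in NSC and 184, 169 and 208 in NR. Every Sox1posGP library lay above every other library, and the group was 5.89-fold above Baseline (log2 fold change 2.56 ± 0.15, adjusted p = 2.7e-08), and NSC and NR were 4.79-fold and 4.31-fold above it. Id1 was at 46.1, 36.6 and 38.4 CPM in Baseline and 85.4, 72.4 and 72.6 in Sox1posGP, 1.88-fold up (log2 fold change 0.91 ± 0.21, adjusted p = 0.0031). In NSC Id1 was at 72.3, 37.1 and 66.1 CPM, with NSC 2 inside the Baseline range, and in NR at 32.5, 28.1 and 36.1 CPM, below every Baseline library but not past the test (adjusted p = 0.15). The NSC call of Id1 was lost without Baseline 2 or 3 or NSC 1 or 3 (adjusted p = 0.11, 0.073, 0.13 and 0.090, with unadjusted p at or above 0.05 in each).

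Id2 followed a like course, with 184, 149 and 158 CPM in Baseline, 268, 248 and 256 in Sox1posGP, 289, 209.6 and 282 in NSC and 72.1, 102 and 121 in NR. It was 1.57-fold up in Sox1posGP (log2 fold change 0.65 ± 0.17, adjusted p = 0.0066), 1.59-fold up in NSC and 1.67-fold down in NR (log2 fold change -0.74 ± 0.16, adjusted p = 0.0010). Id4, the member of the family best known from neural and glial precursors, rose most of the 4 in NSC. Its levels were 5.85, 6.697 and 4.8 CPM in Baseline, 17.1, 14.1 and 15.5 in Sox1posGP, 114, 92.2 and 112 in NSC and 25.1, 53.3 and 45.9 in NR, with no overlap between groups. The rises over Baseline were 2.63-fold in Sox1posGP (log2 fold change 1.40 ± 0.28, adjusted p = 0.0012), 18.1-fold in NSC (log2 fold change 4.18 ± 0.25, adjusted p = 4.6e-09) and 7.101-fold in NR (log2 fold change 2.83 ± 0.25, adjusted p = 1.8e-07). From NSC to NR, Id1, Id2 and Id4 fell by 1.82-fold, 2.64-fold and 2.55-fold, and Id3 did not pass (adjusted p = 0.36). Per kilobase, Id2 led in Baseline at 67.1 ± 7.495 CPM per kb and Id3 in Sox1posGP at 143 ± 4.46, while Id3 and Id2 did not differ beyond their spread in NSC, at 116 ± 25.9 and 107 ± 17.96. Of the 5 astrocyte markers, 2 were higher and 1 lower in Sox1posGP than in Baseline. The lower one was Aldoc, at 639.8, 641 and 638 and 347, 358 and 337 CPM. No other marker of that list exceeded a mean of 18.4 CPM (S100b in Sox1posGP) in the progenitors. The part of these markers in the Id result was not tested. All 4 Id calls in Sox1posGP held in every alternative setting tried.

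**Figure D3:**
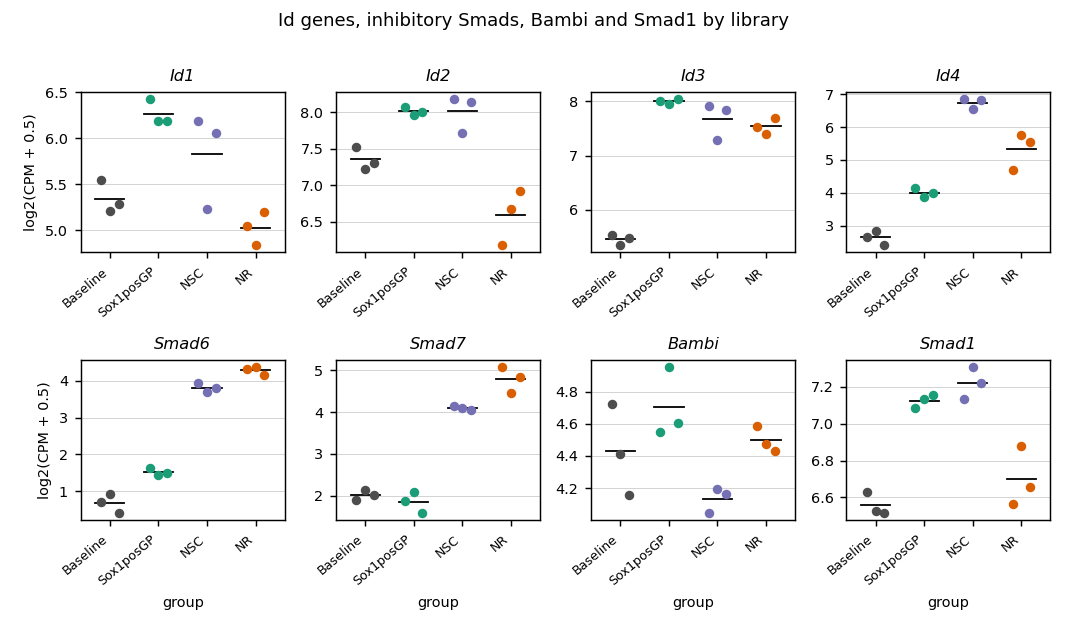
Level of the Id genes, inhibitory Smads, Bambi and Smad1 as log2(CPM + 0.5) by group, with each point 1 library and the line the mean of 3, and with a y axis that differs between panels. Id1 to Id4 and Smad6 are higher in all 3 Sox1posGP libraries than in any Baseline library, whereas Smad7 and Bambi overlap.

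The 250 bases before the RefSeq start of Id2, Id3 and Id4, which were higher in Sox1posGP than in Baseline, are shown first. Those of Smad6 and of Nodal, which was among the members over 4-fold higher in NR than in NSC, follow (RefSeq, GRCm38.p6, 5′ to 3′ on the strand of the gene). Capitals mark GGCGCC, a GC-rich element bound by BMP Smads, and CAGAC, an element of the Smad3 and Smad4 type, each searched on both strands, so that GTCTG is the second in reverse. The windows are chr12:25096093-25096342 (minus strand), chr4:136143572-136143821 (plus strand), chr13:48260866-48261115 (plus strand), chr9:64022060-64022309 (minus strand) and chr10:61417722-61417971 (plus strand).
Id2: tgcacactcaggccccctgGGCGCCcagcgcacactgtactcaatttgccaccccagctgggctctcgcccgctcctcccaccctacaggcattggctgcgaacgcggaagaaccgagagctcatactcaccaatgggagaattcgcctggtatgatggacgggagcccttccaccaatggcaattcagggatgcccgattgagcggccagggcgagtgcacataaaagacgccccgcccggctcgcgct
Id3: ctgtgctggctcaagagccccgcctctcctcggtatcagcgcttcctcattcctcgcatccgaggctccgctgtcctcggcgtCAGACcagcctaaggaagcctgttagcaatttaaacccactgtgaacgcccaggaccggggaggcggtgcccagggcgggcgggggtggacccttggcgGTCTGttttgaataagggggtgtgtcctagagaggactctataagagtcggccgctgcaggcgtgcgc
Id4: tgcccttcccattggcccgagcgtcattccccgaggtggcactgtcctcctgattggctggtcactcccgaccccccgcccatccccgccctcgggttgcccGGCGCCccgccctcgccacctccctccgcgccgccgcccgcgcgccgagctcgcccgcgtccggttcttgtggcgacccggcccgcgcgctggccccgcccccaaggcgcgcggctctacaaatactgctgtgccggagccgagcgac
Smad6: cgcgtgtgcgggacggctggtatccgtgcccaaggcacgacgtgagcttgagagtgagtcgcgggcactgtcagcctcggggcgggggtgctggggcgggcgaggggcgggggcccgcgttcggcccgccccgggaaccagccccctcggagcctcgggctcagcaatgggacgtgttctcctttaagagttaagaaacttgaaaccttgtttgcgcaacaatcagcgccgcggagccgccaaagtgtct
Nodal: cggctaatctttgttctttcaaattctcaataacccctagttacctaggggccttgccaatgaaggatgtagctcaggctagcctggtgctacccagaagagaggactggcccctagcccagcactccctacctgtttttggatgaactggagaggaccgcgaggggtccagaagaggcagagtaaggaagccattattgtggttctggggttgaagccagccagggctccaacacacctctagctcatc
Id2 and Id4 held 1 GGCGCC each, a motif found in 9.59% of all 32851 promoter windows of this length, and Id3 held 2 CAGAC, found in 42.2% of windows. Smad6 held neither of these but 1 copy of the core AGAC, which is contained in CAGAC and found in 82.9% of windows. Nodal held none of the 3. The window of Id4 had 35 CpG dinucleotides, those of Id2 and Id3 18 each, Smad6 27 and Nodal 3, beside a median of 6 over all windows. A match is a string of letters and not a binding site, and windows for Id1, Bmp2, Lefty1, Lefty2, Gdf3 and Nog were not used here.

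Set against NSC and NR, Sox1posGP had more Id1, Id2 and Id3 RNA than NR, less Id4 RNA than both groups, and less RNA of most ligands and antagonists. Id3 was 1.37-fold higher in Sox1posGP than in NR (log2 fold change 0.45 ± 0.14, adjusted p = 0.0085), and Id1 and Id2 were 2.37-fold and 2.61-fold higher. Against NSC, Id3 was higher by log2 0.30 ± 0.14 (adjusted p = 0.065). That call was lost without NSC 2 (adjusted p = 0.17) or any Sox1posGP library (0.079 with an unadjusted p not under 0.05, 0.11 and 0.17). Id1 and Id2 did not pass (adjusted p = 0.10 and 0.94). Id4 was 6.89-fold lower than in NSC and 2.696-fold lower than in NR. Of the 20 ligand genes tested, 12 were lower and 4 higher than in NSC (39.9% and 30.0% of all genes). Against NR, 14 were lower and 3 higher (42.9% and 30.8% of all genes). Some of the lower ligand genes, such as Bmp3 and Bmp6, had no counts in Sox1posGP and passed the filter on low counts only through NSC and NR. The ligand genes higher against both were Gdf9, Gdf11 and Inhbb, and the receptor genes Bmpr2 and Tgfbr2 and Smad5 were higher against both as well. Smad5 was 3.17-fold higher than in NSC (log2 fold change 1.67 ± 0.12, adjusted p = 3.9e-08) and 5.44-fold higher than in NR. Bmp2 in Sox1posGP remained 3.94-fold below NSC and Smad6 5.77-fold below.

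**Figure D4:**
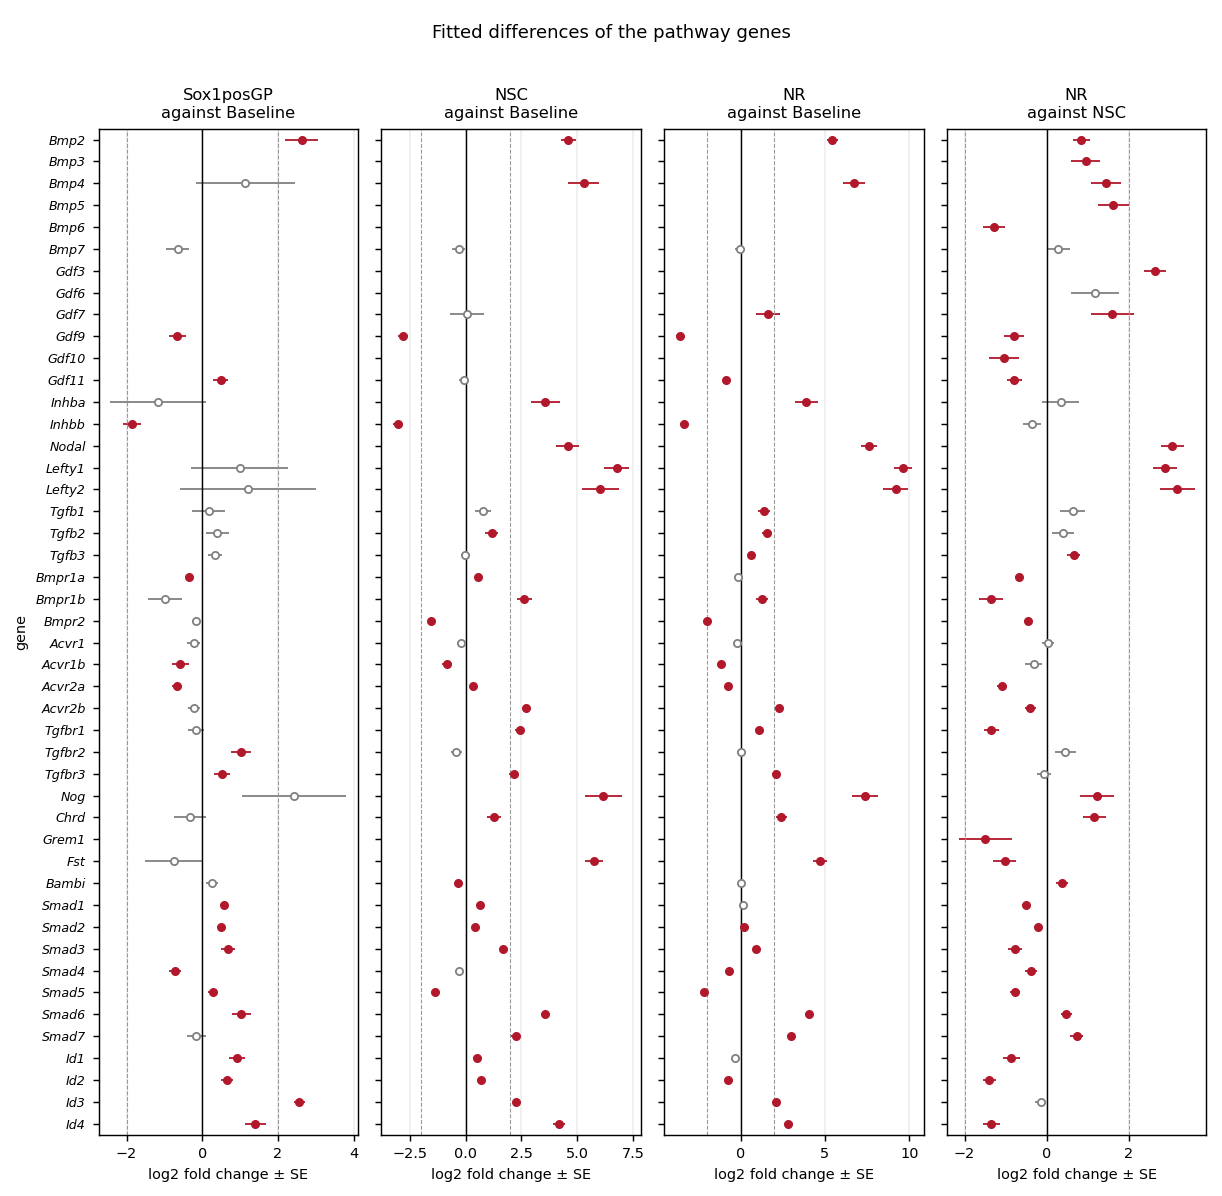
Fitted log2 fold change with its SE for each tested member in 4 comparisons, with x axes that differ between panels, filled where the gene passed the test, dashed lines at 4-fold and no point where a group had 3 or fewer counts. Id1 to Id4 lie right of 0 in Sox1posGP and NSC against Baseline, and Nodal, Lefty1, Lefty2 and Gdf3 are the points right of the dashed line in NR against NSC.

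Another 75 genes of the pathway, in 7 lists, were drawn up as neighbours of the members, and 65 of them were tested. After Sox1 induction 13 rose and 14 fell, 2 and 0 of them over 4-fold (21.6%, 22.7%, 3.87% and 1.92% of all genes), so that the shares that rose and fell were near those of all genes. The 2 were the BMP targets Msx2, a homeobox gene, and Atoh8, a bHLH gene. Msx2 had 25 counts in Sox1posGP (4, 18 and 3 by library) and 1 in Baseline, 45.4-fold (95% counting interval 7.43 to 1863) higher. Atoh8 was at 1.37, 0.977 and 1.04 CPM in Baseline and 6.37, 7.85 and 5.504 in Sox1posGP (log2 fold change 2.47 ± 0.33, adjusted p = 4.6e-05). Of the 9 BMP targets tested, 3 rose and 2 fell, and Hey1, the most abundant of them, went from a mean of 73.5 to 34.1 CPM. In NSC 40 of the 65 rose and 14 fell against Baseline (42.7% and 32.5% of all genes), and in NR 43 rose and 12 fell (44.2% and 32.8% of all genes).

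The list of TGF-beta and activin targets had 8 of 10 genes over 4-fold higher than Baseline in NSC and 8 of 10 in NR (19.1% and 22.0% of all genes). Ccn2, a matricellular protein gene, was at 0.298, 0.837 and 0.626 CPM in Baseline, 0.2895, 0.157 and 1.001 in Sox1posGP, 63.9, 60.6 and 64.8 in NSC and 171, 119 and 123 in NR (log2 fold change 6.97 ± 0.29, adjusted p = 1.6e-10 for NSC). Col1a1 and Col1a2, the collagen I chains, were also among them. The mesenchyme marker sums were 3409, 1815 and 3367 CPM in NSC and 7537, 2101 and 5079.6 in NR. That list includes both collagen genes, so its sums are not a separate measure. In NSC 1, Col1a1 was at 1084 and Col1a2 at 603 CPM. The part of mesenchymal cells in this was not tested. For latency and processing of the ligands, 7 of 10 genes were over 4-fold higher in NSC and 7 in NR, with Ltbp1, a binding protein of latent TGF-beta, up 25.3-fold and Thbs1, an activator of it, up 156-fold in NSC. Between NR and NSC, Tdgf1, the Nodal co-receptor cripto, was 12.9-fold higher in NR (log2 fold change 3.68 ± 0.42, adjusted p = 1.7e-05), at 188, 81.8 and 130.4 CPM against 14.01, 3.28 and 13.5. Eomes and Gsc, targets of Nodal in the early embryo, were 6.71-fold and 4.49-fold higher in NR, and Cer1, a secreted Nodal and BMP antagonist, 6.72-fold higher. The 12 Smad regulators tested had none over 4-fold in these 4 comparisons.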

How the data were processed

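RNA of 12 libraries was amplified with a low-input, full-length cDNA kit and sequenced by the authors. The deposited table holds whole-number counts per Ensembl gene; the submitters' processing notes name STAR 2.6, RSEM 1.1.14 and mm10, with roles and strand setting not given in the sources used here. Symbols came from GENCODE M21 (45143 of 45706 identifiers matched; rows without a symbol held 0.124% of counts). Groups came from the sample labels.

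Counts were fitted over all 12 libraries with edgeR 4.0.16 quasi-likelihood tests (TMM scaling, filterByExpr, group as the only term), with Benjamini-Hochberg adjustment over 17003 genes. A gene passed at adjusted p under 0.1 and p under 0.05; "over 4-fold" adds that fold. DESeq2 1.42.0 and other scalings, filters, a replicate block, thinning and leaving out libraries were tried as alternatives, and the test was run on simulated counts. Where a group had no counts, folds are bounds against 3 counts over that group; with 1 to 3 counts they are ratios with exact 95% intervals that cover counting error only. Depth was 3407066 to 43095688 counts per library.

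Members and gene lists were chosen with earlier results of these data known. Named were, per comparison, the members with the largest change past test and fold without overlap of libraries (at most 12), a fixed set of readouts (Id1 to Id4, Smad6, Smad7, Bambi, Bmp4, Bmp7, Nog, Fst, Inhba, Tgfb2), at most 3 of each list of other pathway genes, Sox1, and members with hardly any counts; other members were named by role after their values were seen. Whether equal library numbers pair samples was checked by correlating deviations from group means: NR and NSC gave 0.229, 0.490 and 0.296 for numbers 1, 2 and 3, so these were treated as paired in a block alternative, and the other pairs of groups gave -0.047 to 0.062. The study states that its replicates came from different days and clonal lines without linking libraries to them. The p-values measure the spread between these libraries, estimated over all 4 groups together. Those for Sox1posGP against Baseline thus also draw on the spread within NSC and NR. Between libraries of a group, chi-square per degree of freedom (1 for counting error alone) was 1.54 to 2.07 in Sox1posGP and 1.66 to 6.72 in Baseline. It was 11.5 to 55.1 in NSC and 20.6 to 53.3 in NR, which were mostly sequenced deeper, and the measure grows with depth.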

Additional observations from a re-analysis of the deposited data

How the results depend on the processing

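Every count of members passing, in each direction and with or without the 4-fold limit, stayed, with 1 exception, within 1.5 times its value under each alternative (DESeq2 size factors, upper-quartile scaling, DESeq2's Wald test, no filter on low counts, a replicate block, fitting only the 2 groups compared, thinning to the smallest total, leaving out any 1 library and, chosen after seeing the data, leaving out NSC 2 and NR 2 together or fitting NR and NSC alone with the block). Leaving out 1 library, members that rose in Sox1posGP against Baseline numbered 10 to 15 and those that fell 4 to 6. In NSC against Baseline these ranges were 29 to 32 and 5 to 8, in NR against Baseline 27 to 29 and 9 to 10, and in NR against NSC 13 to 17 and 17 to 21. The count of members over 4-fold lower in Sox1posGP than in Baseline and in NR than in NSC was 0 by edgeR and also 0 by DESeq2's Wald test. The exception was members over 4-fold higher in Sox1posGP than in NSC, which numbered 1 (Gdf9) and became 2 with no filter on low counts, without Sox1posGP 1 or without NSC 1, 2 or 3, the settings in which Smad9 was tested too. No gene called in a comparison changed direction in any alternative. Of 206 single-gene results, 32 crossed the threshold in at least 1 alternative. With the replicate block, which the libraries of equal number bear out for NR and NSC, 17 members were higher and 20 lower in NR than in NSC, Tgfb1 and Tgfbr2 being the added calls. Libraries of the other pairs of groups share only a number, and the block moved no count there by over 1.5 times. In Sox1posGP against Baseline, Bmp7 (adjusted p = 0.021 with the block) passed in 5 alternatives, and Nog in 2, DESeq2's Wald test (0.040) and no filter (0.0091). Depth limits the progenitor groups most: 8 of 48 members had 3 or fewer counts over Baseline and 8 over Sox1posGP. Of these genes, only Gdf6 was called between the progenitor groups, and in the others a small difference could be missed at this depth.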

Other observations

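Library 2 stood apart within NSC and NR over all genes, and the shares of pathway genes were only somewhat above the general ones. In both NSC and NR, library 2 held the highest of the 3 values for 12 of the 46 members tested (26.1%, beside 17.2% of all genes tested): the BMP ligand genes Bmp2, Bmp3, Bmp6 and Bmp7, the antagonist genes Nog, Chrd and Fst, and Acvr2b, Smad1, Smad2, Smad3 and Tgfb2. It held the lowest value in both groups for another 12 (26.1%, beside 19.3% of all genes): Nodal, Lefty1, Lefty2, Inhba, Inhbb, Tgfb1, Tgfb3, Tgfbr2, Tgfbr3, Grem1, Id1 and Id3. The labels do not say what a library number marks. These counts describe 2 libraries and were not tested.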
